A study of Bos taurus with 8 samples.

Results

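Inflammasomes are protein complexes that cells of the innate immune system assemble in the cytosol when a sensor detects a microbe or damage. The sensors NLRP3, NLRC4 and AIM2 recruit the protease caspase-1, encoded by CASP1, in most cases through the adaptor ASC, encoded by PYCARD. Caspase-1 matures interleukin-1β and interleukin-18 and cleaves gasdermin D, encoded by GSDMD, whose fragments form pores in the membrane and cause the lytic death called pyroptosis. Signalling by lipopolysaccharide (LPS), the outer membrane component of Gram-negative bacteria, is known to prime this system by raising NLRP3 and the interleukin-1 genes in monocytes, while assembly of the complex needs a further signal.

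The 6 genes NLRP3, NLRC4, AIM2, PYCARD, CASP1 and GSDMD were looked up by name among the 21861 genes listed in the single-cell RNA sequencing (scRNA-seq) tables. There were rows for 4 of the 6, namely NLRP3 (ENSBTAG00000001273), NLRC4 (ENSBTAG00000008223), PYCARD (ENSBTAG00000020535) and GSDMD (ENSBTAG00000021474). The look-up, here and for the lists below, took only names found on a single row. It gave none for CASP1 or AIM2, so these 2 genes were not analysed here. Whether they are listed under an identifier or another name was not examined.

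Blood of 4 lactating Holstein females aged 2 years was pooled and divided into 4 parts. One part had no LPS and the other 3 had 2 µg/ml LPS, with exposure times of 2 h, 4 h and 8 h, and peripheral blood mononuclear cells (PBMCs) were isolated afterwards. Each part gave 1 scRNA-seq library and 1 library of single-cell accessible chromatin (scATAC-seq), so no group has a replicate, no difference below has a replicate check and no test was made. All groups come from 1 pool of 1 breed, and no incubation time was found for the part without LPS, so LPS and time in incubation cannot be told apart.

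Captured RNA molecules are counted as UMIs (unique molecular identifiers). Levels are given as counts per 1000000 UMIs of the same cells (CPM), and ratios to no LPS as log2((CPM + 1)/(CPM + 1)), with 2-fold meaning a log2 ratio of 1. Intervals are 95% exact intervals that cover counting error only. Those of levels and ratios treat each UMI as independent, so they leave out the spread between cells. The cells kept held between 16657841 UMIs at 8 h and 47875879 at 2 h. Cells were put into classes by the UMIs of marker genes, whatever the 4 genes did. CD14-gated cells had at least 2 UMIs of CD14, a co-receptor for LPS on monocytes, and none of CD3E or MS4A1. CSF3R-gated cells had a UMI of CSF3R, the receptor of granulocyte colony-stimulating factor, with less than 2 of CD14. CD3E-gated cells carried the T cell marker, and MS4A1-gated cells the B cell marker. The CD14 gate held 708 cells without LPS, then 308 at 2 h, 119 at 4 h and 67 at 8 h, and the CSF3R gate 61, 124, 100 and 41.

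The gates were checked against markers they did not use. Over the 4 libraries, the summed level of 9 other monocyte markers was 2904 to 5000 CPM in CD14-gated cells and 242 to 273 in CD3E-gated cells. That of 9 other T cell markers was 5.88 to 15.6 CPM in CD14-gated cells and 556 to 611 in CD3E-gated cells, and that of 8 other B cell markers was 13.7 to 48.3 in CD14-gated and 1205 to 1664 in MS4A1-gated cells. In CSF3R-gated cells 7 other granulocyte markers summed to 738 to 1258 CPM, with MPO at 0 in each library and ELANE and CAMP at 0 in 3 of the 4, and the 9 monocyte markers to 998 to 2542, with CSF1R and CD163 at 0 in all 4. A list of 4 dendritic cell markers summed to 3174 to 4660 CPM there and to 1072 to 1418 in CD14-gated cells. XCR1 and CLEC9A were at 0 in both gates in all 4 libraries, and FLT3 was at 0 in CSF3R-gated cells in 3 of the 4. In those 3 the sum was BATF3 alone, and in CD14-gated cells BATF3 had 1071 to 1413 CPM, so these sums do not show a dendritic cell type. As the marker lists gave no clear type, the CSF3R gate is named by its gene and not by a cell type. The median depth of CSF3R-gated cells was low, 1061 to 1715 UMIs, against 9352 to 12608 in CD14-gated cells. Within the CD14 gate the monocyte markers were not level: CD163 had 47.8, 7.84, 3.47 and 12.5 CPM (no LPS, 2 h, 4 h and 8 h), and CD14 itself 2307, 1403, 1821 and 1930. Granulocyte markers were also not level in the CD14 gate, where the 7 genes summed to 5.19, 24.9, 85.1 and 12.5 CPM with MPO, ELANE, PGLYRP1 and CAMP at 0 in all 4 libraries. Cells of the CD14 gate with a CSF3R UMI numbered 38 of 708, 46 of 308, 34 of 119 and 7 of 67. The part of the monocyte marker shifts in the ratios below was not tested, and values without the cells with a CSF3R UMI are given.

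NLRP3, the sensor that responds to potassium efflux and membrane damage, was higher in each LPS library than without LPS. Summed over all cells it had 19.1 CPM without LPS (735 UMIs), then 66.9 at 2 h (3205), 30.3 at 4 h (1217) and last 26.3 (438) at 8 h. The log2 ratios to no LPS were 1.76 (interval 1.69 to 1.93), 0.64 and 0.44, and the intervals of the 4 h and 8 h levels, 28.6 to 32.1 and 23.9 to 28.9 CPM, overlapped. NLRP3 was thus the 1 gene of the 4 that was at least 2-fold higher over all cells at 2 h, where 0.938% of the genes counted (those with at least 20 UMIs over both libraries) were. None of the 4 was at least 2-fold higher at 4 h, where 1.28% of genes were, or at 8 h, where 0.492% were.

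In CD14-gated cells NLRP3 was past 2-fold at both 2 h and 4 h. The level was 67.5 CPM without LPS (interval 61.4 to 74.0), then 321 at 2 h (303 to 340), 238 at 4 h (211 to 268) and last 125 at 8 h (98.9 to 155). The 4 intervals did not overlap, with the highest level at 2 h and each later library lower than the one before. The log2 ratios were 2.23 (2.09 to 2.41), 1.80 (1.60 to 2.04) and 0.88 (0.52 to 1.23). Without the cells that had a CSF3R UMI they were 2.10, 1.57 and 0.61. The share of CD14-gated cells with an NLRP3 UMI was 33.5% of 708 cells without LPS, then 80.2% of 308 at 2 h, 63.9% of 119 at 4 h and 46.3% of 67 at 8 h. With 1000 UMIs drawn at random from every cell, to take out differences in depth, the shares were 6.09%, 25.3%, 25.0% and 13.8%. Cells below that depth (35, 8, 11 and 9) were not drawn from. The lower share at 8 h than at 4 h depended on the gate, since with at least 5 CD14 UMIs the shares were 38.9%, 83.9%, 70.6% and 73.7%. In CD3E-gated cells, with a median of 4076 UMIs without LPS, the shares at full depth were lower, between 1.99% without LPS and 5.97% at 2 h.

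NLRC4, which together with NAIP senses bacterial flagellin and secretion system proteins, was counted mostly outside the CD3E and MS4A1 gates, which held 3 and 12 of its 283 UMIs at 2 h. In CD14-gated cells it had 15.7 CPM without LPS (106 UMIs), then 36.1 at 2 h (129), 36.5 at 4 h (42) and last 21.8 at 8 h (14). The 2 h and 4 h levels lay above that without LPS by more than their intervals, with log2 ratios of 1.15 (0.82 to 1.59) and 1.16 (0.66 to 1.74), or 1.05 and 1.01 without the cells that had a CSF3R UMI. The 8 h ratio of 0.45 had an interval of -0.45 to 1.28, so no difference was detectable at that depth. The shares of CD14-gated cells with an NLRC4 UMI were 12.3%, 29.5%, 29.4% and 13.4%, and 1.04%, 6.67%, 4.63% and 1.72% after thinning. Over all cells the NLRC4 level was 3.53, 5.91, 2.81 and 2.16 CPM, with log2 ratios of 0.61, -0.25 (-0.70 to 0.04) and -0.52 (-1.28 to -0.17). At 8 h the interval was thus below 0 over all cells, while that in CD14-gated cells included 0, so an opposite direction is not shown. Beside this, CD14-gated cells were 9.05% of the cells without LPS, then 3.12% at 2 h, 1.61% at 4 h and 1.96% at 8 h, and the part of that in the sum over all cells was not tested.

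PYCARD, the adaptor that links a sensor to caspase-1, was lower in each LPS library. Over all cells it had 111.6 CPM without LPS (4297 UMIs), then 16.4 at 2 h (785), 9.59 at 4 h (385) and 15.1 at 8 h (251), a 6.47-fold, 10.6-fold and 7.01-fold lower level on the CPM + 1 scale. The 3 LPS libraries were all far below the library without LPS. PYCARD was the 1 gene of the 4 that was at least 2-fold lower over all cells at 2 h, 4 h and 8 h, where 2.46%, 4.26% and 2.92% of the genes counted were. In the library without LPS, 72.7% of the PYCARD UMIs were in CD14-gated cells, and these cells were a smaller share of the cells in the LPS libraries. In bulk sums such as these, fewer cells of a type and less RNA per cell cannot be told apart.

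The lower PYCARD level was also seen within the CD14 gate. The level there was 463 CPM without LPS (447 to 480), then 104 at 2 h (93.9 to 115), 112 at 4 h (93.5 to 133) and last 143 at 8 h (116 to 176). The library without LPS stood apart, while the intervals of 2 h and 4 h, and of 4 h and 8 h, overlapped. The log2 ratios were -2.14 (-2.31 to -2.0), -2.04 (-2.31 to -1.79) and -1.68 (-2.01 to -1.39), and -2.15, -2.21 and -1.73 without the cells that had a CSF3R UMI. The share of CD14-gated cells with a PYCARD UMI was 77.8% without LPS, then 48.1% at 2 h, 37.0% at 4 h and 43.3% at 8 h, and 32.1%, 6.33%, 4.63% and 13.8% after thinning. PYCARD had 8.53, 3.77, 3.14 and 5.03 CPM in CD3E-gated cells and 22.3, 11.1, 8.64 and 14.0 in MS4A1-gated cells. Free RNA from other cells also reaches these droplets, and the CD3E values were 1.84%, 3.61%, 2.80% and 3.51% of the CD14 level, where 9 monocyte markers not used in the gate had a median of 0.84%, 0.57%, 0.41% and 1.55%. The MS4A1 values were 4.82%, 10.6%, 7.71% and 9.79% of it. The part of free RNA in these levels was not tested.

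The balance of sensor and adaptor transcripts within the CD14 gate differed between the libraries. For every NLRP3 UMI there were 6.86 PYCARD UMIs without LPS (6.22 to 7.59), then 0.325 at 2 h (0.288 to 0.365), 0.471 at 4 h (0.379 to 0.582) and last 1.15 at 8 h (0.843 to 1.57). Capture differs between genes, so the ratio does not compare their molecules, and it is read only between libraries. The share of CD14-gated cells in which both transcripts were counted was 29.8% without LPS (211 cells), then 40.9% at 2 h (126), 27.7% at 4 h (33) and 28.4% at 8 h (19). Cells with PYCARD and no NLRP3 UMI numbered 340 without LPS and 22 at 2 h, and cells with NLRP3 and no PYCARD UMI 26 and 121.

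GSDMD, the pore-forming substrate of caspase-1, was counted mainly in the lymphocyte gates and was within 2-fold of its level without LPS wherever it was counted. Over all cells it had 14.5 CPM without LPS (557 UMIs), then 15.3 at 2 h (732), 15.1 at 4 h (606) and last 18.5 at 8 h (309). The log2 ratios of 0.07 (-0.08 to 0.24), 0.06 (-0.11 to 0.23) and 0.34 (0.15 to 0.56) were all within 2-fold. In CD3E-gated cells the level was 16.9, 17.7, 17.5 and 19.8 CPM and in MS4A1-gated cells 21.2, 17.7, 13.6 and 19.9. MS4A1-gated cells at 4 h were the lowest of these, with an interval of 11.5 to 15.9 against 18.2 to 24.6 without LPS. In CD14-gated cells only 13, 4, 1 and 2 GSDMD UMIs were counted, 1.93 CPM without LPS (1.03 to 3.30), which is too few for a ratio. Without LPS 1.69% of CD14-gated cells had a GSDMD UMI at a median depth of 9876 UMIs, against 7.02% of CD3E-gated cells at 4076.

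**Figure D1:**
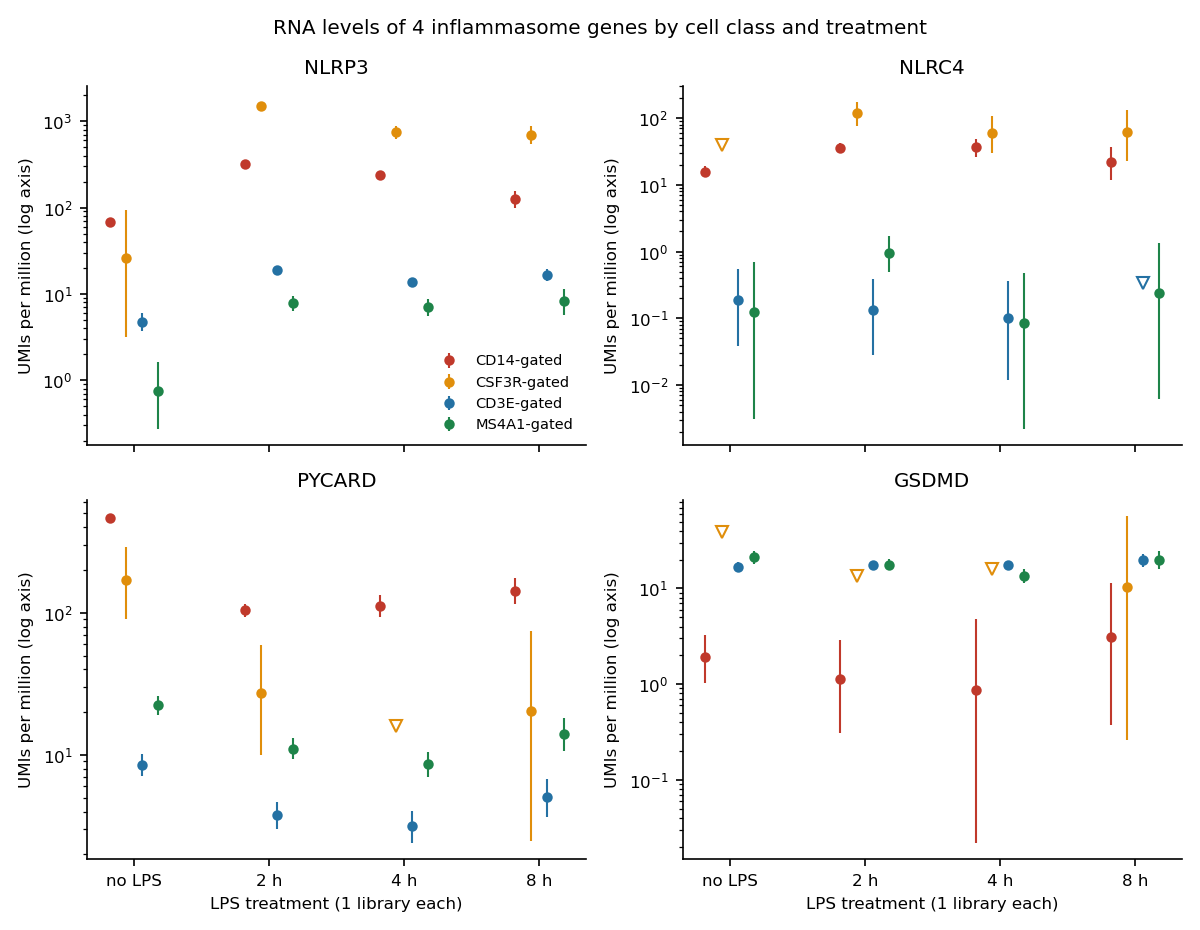
RNA levels of NLRP3, NLRC4, PYCARD and GSDMD (CPM of UMIs, log axis) in 4 gated cell classes without LPS and at 2 h, 4 h and 8 h, 1 library each, with 95% exact Poisson intervals as bars. Open triangles mark classes with 0 UMIs, drawn at the level of 3 UMIs, while NLRP3 in CD14-gated cells lay at 67.5 without LPS and 321 at 2 h, PYCARD at 463 and 104, and GSDMD was lower in CD14-gated than in CD3E-gated cells in each library.

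Without LPS, GSDMD and NLRP3 were counted mostly in different classes. CD14-gated cells held 61.9% of the NLRP3 UMIs and 72.7% of the PYCARD UMIs without LPS but 2.33% of the GSDMD UMIs, while CD3E-gated cells held 10.5%, 3.21% and 49.0%. At 4 h the CD14 and CD3E gates held 22.5% and 22.4% of the NLRP3 UMIs, and at 8 h CD3E-gated cells, with 33.1%, held more of the NLRP3 UMIs than CD14-gated cells, with 18.3%. These shares also depend on the size of the gates. Of all 38503367 UMIs without LPS, CD3E-gated cells held 16182427 and CD14-gated cells 6740575. At 8 h they held 8741623 and 641428 of 16657841. In level, NLRP3 at 8 h remained lower in CD3E-gated than in CD14-gated cells, with 16.6 against 125 CPM. Among the CD14, MS4A1 and CD3E gates the PYCARD level was highest to lowest in that order in all 4 libraries, with no overlap of intervals. The CSF3R gate is left out of this order. It had 170 CPM without LPS (90.7 to 291, from 13 UMIs), above MS4A1-gated cells, and 0 UMIs at 4 h. For GSDMD the intervals of the CD3E and MS4A1 gates overlapped in all 4 libraries, and those of CD14-gated cells lay below both.

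The highest NLRP3 levels were in CSF3R-gated cells with LPS. These cells had 26.2 CPM without LPS, from 2 UMIs in 61 cells, and 1485 at 2 h, 741 at 4 h and 697 at 8 h, from 329, 138 and 68 UMIs. In the LPS libraries that was above the level in CD14-gated cells, with no overlap of intervals. At 8 h the NLRP3 UMIs lay in 12 of 41 CSF3R-gated cells and in 31 of 67 CD14-gated cells, a spread the intervals do not cover. As plain ratios to no LPS the levels were 56.7 times (15.6 to 470.0), 28.3 times (7.68 to 236) and 26.6 times (7.09 to 224) as high, with wide intervals because of the 2 UMIs. The share of CSF3R-gated cells with an NLRP3 UMI was 3.28% without LPS and 55.6%, 45.0% and 29.3% at 2 h, 4 h and 8 h, in cells far shallower than those of the CD14 gate. Thinned to 1000 UMIs it was 5.56%, 52.4%, 32.9% and 25.0%, of 36, 105, 85 and 36 cells. In CD14-gated cells it was 6.09%, 25.3%, 25.0% and 13.8%. The intervals of both gates overlapped without LPS, at 4 h (23.1% to 44.0% and 17.2% to 34.3%) and at 8 h, but not at 2 h. NLRC4 had 0 UMIs in this class without LPS and 26 at 2 h (117 CPM), with a lower limit of 1.18 for the log2 ratio. PYCARD had 13, 6, 0 and 2 UMIs there, and the upper limit of the log2 ratio at 4 h was -2.90. GSDMD was counted once, at 8 h.

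In the lymphocyte gates NLRP3 was at a low level that was also higher with LPS. CD3E-gated cells had 4.76, 18.9, 13.6 and 16.6 CPM, and the log2 ratios of 1.79, 1.34 and 1.61 were all past 2-fold. MS4A1-gated cells had 0.74, 7.78, 7.0 and 8.23 CPM, from 6, 97, 81 and 34 UMIs. In the LPS libraries these UMIs were in few cells, 33 of 2416 at 2 h, 22 of 1908 at 4 h and 12 of 721 at 8 h. Cells with no gate marker had 12.3, 120, 37.3 and 39.3 CPM of NLRP3. Beside the same 9 monocyte markers, the CD3E level of NLRP3 was 7.05%, 5.88%, 5.72% and 13.3% of the CD14 level. The markers had a median of 0.84%, 0.57%, 0.41% and 1.55% there, while CST3 was the highest marker, at 69.9% to 113%. For NLRC4 the percentage was between 0 and 1.18%, near the median of the markers. In MS4A1-gated cells NLRP3 was at 1.10%, 2.42%, 2.94% and 6.60% of the CD14 level, where the markers had a median of 0.81%, 0.52%, 0.16% and 1.94%. CST3 was again the highest marker, at 18.4% to 36.9%.

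A wider list of 47 other genes of the pathway, of which 41 had a row, was read beside these 4. In CD14-gated cells 2 of the 3 genes counted, NLRP3 and NLRC4, were at least 2-fold higher at 2 h and at 4 h, where 4.17% and 5.7% of all genes counted were, and none at 8 h, where 5.52% were. PYCARD was at least 2-fold lower at 2 h, 4 h and 8 h, where 21.2%, 12.5% and 8.17% of genes were. The median of all genes in this gate was itself shifted, by -0.56 at 2 h, -0.19 at 4 h and -0.04 at 8 h. Relative to it the 2 h log2 ratios were 2.79 for NLRP3, 1.71 for NLRC4 and -1.58 for PYCARD. Scaling also changed the split of calls at 2 h, from 324 higher and 1649 lower to 632 and 643 with TMM, and at 4 h from 431 and 944 to 577 and 695.

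Of the 41 other genes, 27 were counted in CD14-gated cells at 2 h. Of these, 6 were at least 2-fold higher, 3 at least 2-fold lower and 18 within 2-fold, where 4.17% of all genes were higher and 21.2% lower. Their median log2 ratio was 0.18 against -0.56 over all genes. At 4 h 6 of 26 were higher and 4 lower (5.7% and 12.5% of all genes, median 0.15 against -0.19). At 8 h 1 was higher and 2 lower (5.52% and 8.17% of all genes, median -0.02 against -0.04). Relative to the median of all genes, 10 were higher and 2 lower at 2 h, where 9.17% and 5.87% of all genes were. At 4 h these numbers were 8 and 4 (8.2% and 8.61% of all genes), and at 8 h 1 and 1 (6.19% and 7.58%).

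Of the 3 other sensors counted in CD14-gated cells, 2 were at least 2-fold higher at 2 h, 3 at 4 h and none at 8 h, where 4.17%, 5.7% and 5.52% of all genes were. MEFV, which encodes the sensor pyrin, had 145 CPM in CD14-gated cells without LPS and 482, 425 and 217 at 2 h, 4 h and 8 h, with log2 ratios of 1.72, 1.54 and 0.58. NLRP12, a relative of NLRP3 mostly described as a regulator of inflammation, had 16.8, 70.6, 81.6 and 29.6 CPM and ratios of 2.01, 2.22 and 0.79. NAIP, the partner of NLRC4, passed 2-fold narrowly at 4 h (1.00), with 14.2 CPM without LPS and 29.5 at 4 h (96 and 34 UMIs). All 3 had their lowest level with LPS at 8 h.

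Of the products of the pathway, IL1A, which encodes interleukin-1α, had 207, 1108, 471 and 304 CPM in the gate. IL1B, the precursor matured by caspase-1, was already at 9066 CPM without LPS and had 21706 at 2 h, 15951 at 4 h and 16342 at 8 h. It was past 2-fold at 2 h (1.26) and within it at 4 h and 8 h (0.82 and 0.85). IL18 had 39 UMIs without LPS, then 11 at 2 h and 0 at 4 h and 8 h. The upper limit of its log2 ratio was -0.78 at 4 h and 0.06 at 8 h, so at 8 h no difference was detectable at that depth. IL18 had fewer than the 50 UMIs set for naming a gene at 4 h and 8 h and was named after its values were seen. At 8 h it counts as past 2-fold on the CPM + 1 scale although that limit is above 0.

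Genes of inhibitors differed in direction. IL1RN, which encodes the receptor antagonist, had 1261, 5848, 7786 and 3438 CPM in CD14-gated cells and was past 2-fold at all 3 times, with ratios of 2.21, 2.63 and 1.45. IL1R2, the decoy receptor, had 184, 106, 75.6 and 235 CPM and was past 2-fold, lower, at 4 h (-1.27). IL18BP, the binding protein that neutralises interleukin-18, was within 2-fold in the gate (1073, 1219, 1473 and 709 CPM). Over all cells IL18BP was 2.82-fold lower at 4 h and 3.88-fold lower at 8 h.

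Among pore genes, GSDME, which encodes another gasdermin, had 45.4, 39.8, 28.7 and 21.8 CPM in CD14-gated cells. It was narrowly past 2-fold at 8 h (-1.02, interval -1.94 to -0.29, from 14 UMIs), and within it relative to the median of all genes (-0.99). NINJ1, which ruptures the membrane in the last step of lytic death, stayed within 2-fold in the gate (589, 675, 613 and 497 CPM) but was 2.80-fold lower over all cells at 4 h and 2.43-fold lower at 8 h. Of the caspase genes, CASP4 and CASP8 were within 2-fold in the gate at all 3 times, but relative to the median of all genes CASP4 was at 1.45 at 2 h. CASP4, which encodes a caspase that binds LPS in the cytosol, had 40.6, 76.2, 62.5 and 26.5 CPM, and CASP8, the initiator of death receptor apoptosis, 35.9, 28.0, 41.7 and 63.9. Both are outside the rule for naming genes and were named after their values were seen.

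**Figure D2:**
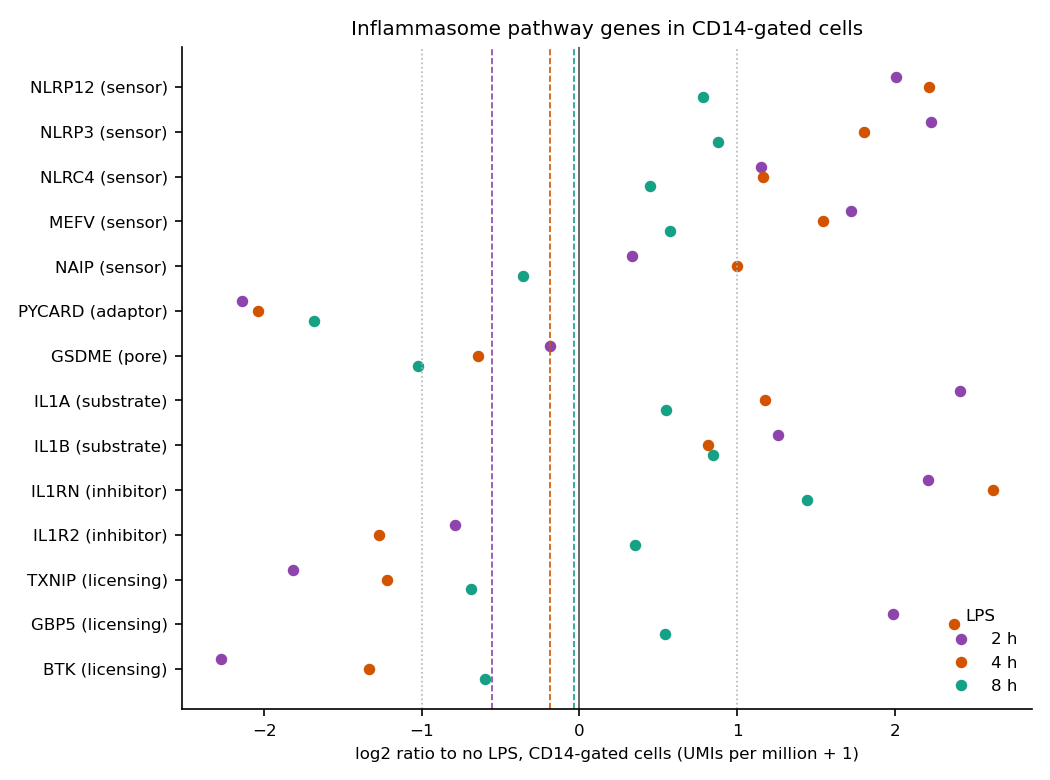
Log2 ratios to no LPS in CD14-gated cells (CPM + 1) for NLRP3, NLRC4, PYCARD and the other pathway genes with at least 50 UMIs that passed 2-fold there at 2 h, 4 h or 8 h, 1 library each. Dotted lines mark 2-fold and dashed lines the median of all genes at each time (-0.56, -0.19 and -0.04), and of the 5 sensor genes NLRP12, NLRP3, NLRC4 and MEFV lie right of 0 at all 3 times, NAIP lies at -0.36 at 8 h, and PYCARD lies left of the lower 2-fold line.

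The upstream genes were mixed. GBP5, a guanylate-binding protein that promotes NLRP3 assembly, had 5.04, 23.0, 30.4 and 7.80 CPM in CD14-gated cells, with ratios of 1.99 and 2.38 at 2 h and 4 h. TXNIP, a thioredoxin inhibitor that binds NLRP3, had 149, 41.5, 63.4 and 92.0 CPM, and its ratio was -1.82 at 2 h and -1.22 at 4 h. BTK, a kinase that acts on NLRP3 and ASC, had 99, 8, 6 and 6 UMIs and ratios of -2.27 and -1.34 at 2 h and 4 h. GBP2, named there after its values were seen, passed 2-fold, lower, at 2 h on 23 and 3 UMIs, and not relative to the median of all genes. Over all cells GBP2 and GBP4 were higher at 4 h, with 37.9 against 94.6 CPM and 11.3 against 25.0.

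**Figure D3:**
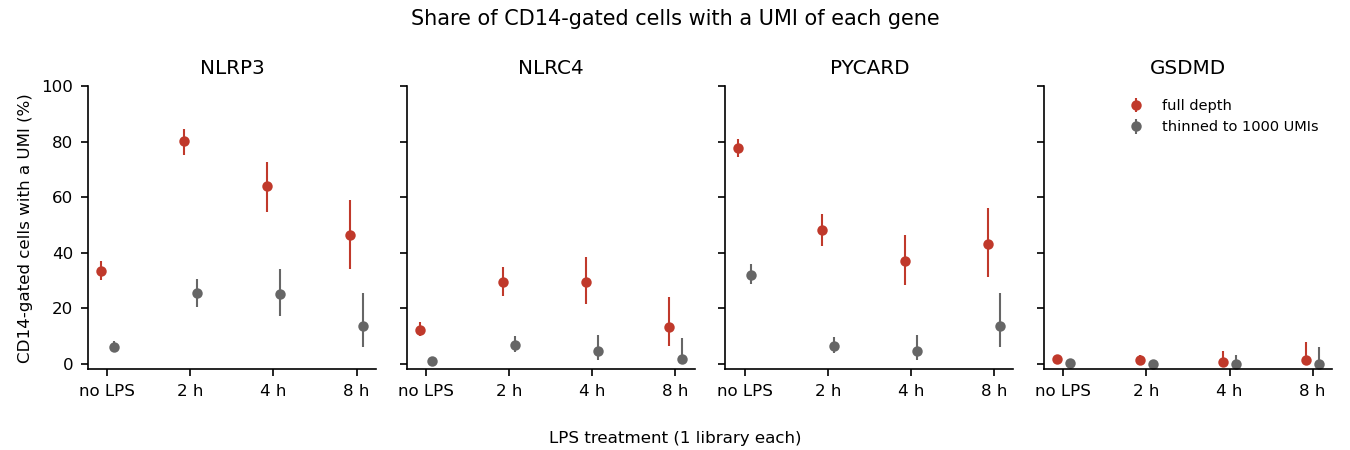
Share of CD14-gated cells with at least 1 UMI of NLRP3, NLRC4, PYCARD or GSDMD, at full depth and with 1000 UMIs drawn from every cell, with 95% exact binomial intervals as bars, for the 4 libraries. NLRP3 went from 33.5% without LPS to 80.2% at 2 h and PYCARD from 77.8% to 48.1%, and the thinned shares had the same order between these libraries.

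Over all cells 38 of the 41 other genes were counted. At 2 h 4 were at least 2-fold higher (NLRP12, MEFV, IL1A and IL1RN) and 2 lower (GSDME and IL1R2), where 0.938% and 2.46% of all genes were, with a median of -0.14 against -0.03 over all genes. At 4 h 4 were higher (IL1RN, GBP2, GBP4 and GBP5) and 5 lower (GSDME, NINJ1, IL1B, IL1R2 and IL18BP), where 1.28% and 4.26% of all genes were (median -0.09 against 0.02). At 8 h none was higher and 4 were lower, where 0.492% and 2.92% of all genes were (median -0.05 against 0.10). IL1B was 2.35-fold lower over all cells at 4 h, while in CD14-gated cells it was 1.76-fold higher.

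The genes whose log2 level was most like that of each of the 4 were sought over 20 points, 5 classes (all but the CSF3R gate) in each of the 4 libraries, among 9944 genes. These are descriptions, since the points share libraries and the classes were gated on few genes. The 3 most like NLRP3 were PRDM1 (Pearson r 0.96), PPP1R15A (0.96) and NFKBIA (0.95). For NLRC4 they were F3 (0.99), CDA (0.98) and IL27 (0.98), and for PYCARD CEBPE (0.96), NRN1 (0.96) and ITGAM (0.96). For GSDMD they were ZNF48, MICOS13 and REX1BD (0.99 each). Between the 4 genes, r was 0.92 for NLRP3 with NLRC4, 0.52 for NLRP3 with PYCARD and -0.72 for NLRP3 with GSDMD.

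Accessibility was read from counts per gene in the scATAC-seq libraries, which measure how often a transposase cut open chromatin assigned to a gene, and is given per 1000000 counts of the same nuclei (CPM). NLRP3 and GSDMD were listed in all 4 tables, PYCARD at 2 h and 4 h, and NLRC4 in none. The library without LPS was shallow, with 975012 counts against 11957904 to 30250143 in the LPS libraries. It also shared 228 barcodes with the 2 h library, 7.31% of its own, where other pairs shared 10 to 31. The 2 h library was therefore the reference for 4 h and 8 h.

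NLRP3 had 19.5 CPM without LPS (19 counts, interval 9.13 to 36.4), then 29.7 at 2 h (27.0 to 32.5), 33.9 at 4 h (30.9 to 37.2) and last 19.5 at 8 h (16.1 to 23.4). GSDMD had 17.4 (7.76 to 33.7), 27.5, 29.0 and 20.4, and PYCARD 9.32 at 2 h and 9.91 at 4 h. The 8 h library was the lowest of the LPS libraries for both genes listed there. Its median depth was 2250 counts against 5171 at 2 h, nuclei of T lineage (defined below by their counts) were 16.3% of it against 35.1%, and those without a lineage 70.5% against 38.4%. A lineage needs counts in several listed genes, so these shares also depend on depth. The part of these shifts in the lower values was not tested. Against 2 h, the log2 ratio at 8 h was -0.58 (-0.91 to -0.31) for NLRP3 and -0.41 (-0.73 to -0.13) for GSDMD, and at 4 h the ratios were 0.19, 0.07 and 0.08 for NLRP3, GSDMD and PYCARD. Of the 3 genes counted at 4 h and the 2 counted at 8 h none passed 2-fold, where 0.457% of genes were at least 2-fold higher and 1.46% lower at 4 h, and 1.17% higher and 6.69% lower at 8 h. Against no LPS the NLRP3 ratio was 0.58 at 2 h, with an interval of -0.31 to 1.71, so the depth did not show a difference. Without the shared barcodes NLRP3 had 18.5 CPM without LPS and 30.1 at 2 h.

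By lineage the accessibility of NLRP3 was highest in nuclei of myeloid lineage and lowest in those of B lineage, although at 8 h the interval of the myeloid to T ratio (-1.60 to 3.46 on the log2 scale) included 0. A nucleus was given a lineage when at least 3 genes of a T, B or myeloid list had a count, and at least 2 more than for the other lists. This gave 32, 21 and 11 myeloid nuclei at 2 h, 4 h and 8 h and none without LPS, so the myeloid values rest on few nuclei. Without LPS only 1 T and 36 B nuclei of 3121 were given a lineage, where the median depth was 213 counts. The lack of myeloid nuclei there therefore cannot be read as their absence. Of the 14 genes of the myeloid list, 11, 9 and 7 were listed at 2 h, 4 h and 8 h, so these numbers also depend on the listing. NLRP3 had 152 CPM in myeloid nuclei at 2 h (84.2 to 253), 29.6 in T nuclei (25.5 to 34.2) and 11.5 in B nuclei (8.60 to 15.2). At 4 h the values were 125, 37.9 and 18.3, and at 8 h 68.2 from 4 counts, 24.1 and 6.94. T nuclei exceeded B nuclei by a log2 ratio of 1.36 (0.90 to 1.83), 1.05 (0.67 to 1.44) and 1.79 (0.76 to 2.97). GSDMD was also higher in T than in B nuclei at 2 h (28.8 against 19.2) and 8 h (30.3 against 12.2), while at 4 h the interval of the ratio, -0.14 to 0.58, included 0. In myeloid nuclei GSDMD had 31.5, 39.5 and 51.2 CPM, from 6, 6 and 3 counts, and the intervals of its ratios to T nuclei all included 0. PYCARD had 9.40 in T and 11.7 in B nuclei at 2 h, with intervals that overlapped, and 2 counts in myeloid nuclei.

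**Figure D4:**
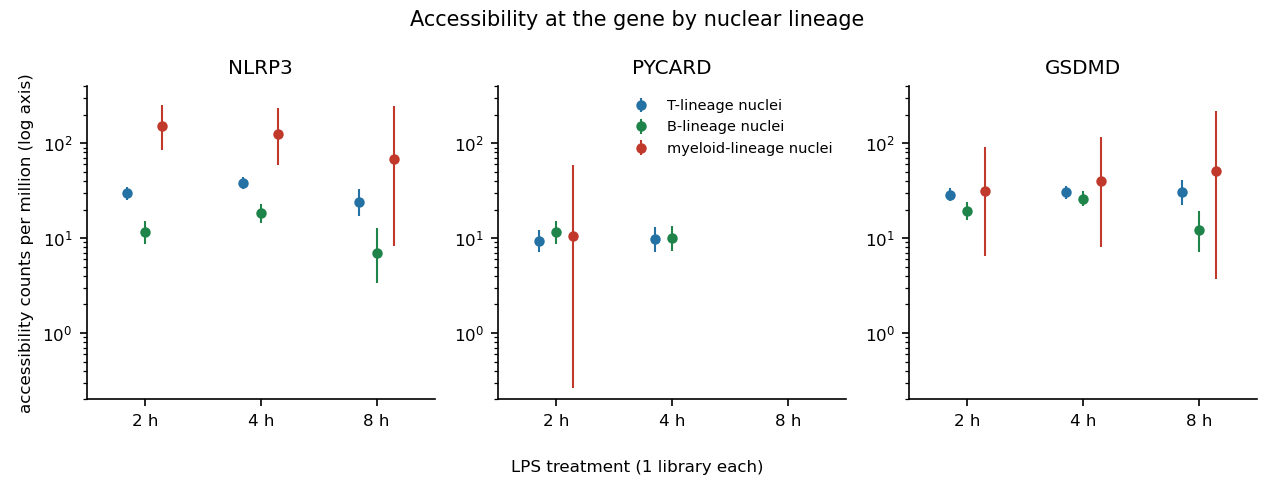
Accessibility (CPM) at NLRP3, PYCARD and GSDMD (log axis) in nuclei of T, B and myeloid lineage, in the 3 LPS libraries (2 h, 4 h, 8 h), with 95% exact intervals on the halved counts as bars. NLRP3 lay at 152 in myeloid, 29.6 in T and 11.5 in B nuclei at 2 h, and PYCARD was not listed at 8 h and had 0 counts in myeloid nuclei at 4 h.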

How the data were processed

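scRNA-seq libraries were made with 3′ reagent kits (version 3 chemistry) and processed by the authors with Cell Ranger on ARS-UCD1.2 (bosTau9). The scRNA-seq tables the authors deposited hold UMI counts that were not normalized, 1 for each gene in each barcode. The scATAC-seq tables they deposited hold counts per gene whose rule is not given in the sources used here. Between 88.7% and 93.8% of the scATAC-seq values above 0 were even, so intervals there treat 2 counts as 1 unit.

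Limits on cells followed the study (200 to 3000 genes, under 20% mitochondrial UMIs from 13 genes), except that its limit of 200 UMIs, worded as an upper one, was read as a minimum. The cells kept outnumber those the study gives for each library, and the reason was not found. They numbered 7821 (no LPS), 9865 (2 h), 7387 (4 h) and 3411 (8 h). No doublet caller was run. Barcodes with markers of more than 1 gate were set aside as mixed, and those with no gate marker were left without a class. RNA libraries shared 8 to 24 barcodes per pair. Sums of UMIs over the cells of a class in 1 library were compared as log2((CPM + 1)/(CPM + 1)) for genes with at least 20 UMIs over the 2 libraries. Intervals are exact conditional binomial (ratios), Poisson (levels) and Clopper-Pearson (shares), and the intervals of ratios are those of the plain ratio without the added 1. Cells are not replicates, and with 1 library per group no p-value was computed. The genes, lists and gates were chosen with earlier results of these data known. Named were the genes looked up, the pathway genes with at least 50 UMIs past 2-fold in CD14-gated or all cells at any time, and for each gene with at least 200 UMIs the 3 most alike of at least 200 UMIs, by Pearson correlation of log2(CPM + 1) over classes with at least 50 cells in each library.

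TMM (edgeR 4.0.16) and DESeq2 1.42.0 size factors served as alternative scalings, with no test made by either tool. Other alternatives changed the pseudocount, the limits on cells, the gate, the depth and the weighting of cells. The ratio step was tested on simulated data with 200 changed genes: the sign was recovered for 99.5% to 100% of them, with a median error of 0.10 to 0.13 on the log2 scale, over 7464 to 12150 genes. This checked the calculation only. With 1 library per group the spread between libraries is not known, so that error is not the accuracy of the ratios above. Python 3.11.15, numpy 2.4.6, scipy 1.17.1, pandas 2.3.3 and matplotlib 3.10.9 were used. Coordinates and sequences were not used here. Some genes of the lists are not reported here.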

Additional observations from a re-analysis of the deposited data

Results flagged for a closer look

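CD14-gated barcodes with more than 3000 genes were left out of all levels above, as the limits on cells state. There were 90, 35, 18 and 23 of them (no LPS, 2 h, 4 h and 8 h), 166 in all, and they are given here because they held signal of the same genes outside the cells compared. They carried 540 UMIs of NLRP3, 994 of PYCARD, 71 of NLRC4 and 20 of GSDMD. NLRP3 had 46.7, 205, 151 and 108 CPM in them and PYCARD 320, 53.6, 65.6 and 92.4, so both had the same order between no LPS and 2 h as in the cells kept. NLRC4 had 10.9, 17.1, 18.1 and 15.6 CPM and GSDMD 5.44, 2.44, 3.28 and 1.42. Whether these barcodes are large cells or more than 1 cell was not tested.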

How the results depend on the processing

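PYCARD was past 2-fold, lower, in all 9 alternatives over all cells and all 11 in CD14-gated cells at 2 h, 4 h and 8 h, with log2 ratios in CD14-gated cells of -2.33 to -1.56, -2.59 to -1.85 and -1.98 to -1.61. NLRP3 was past 2-fold in all 9 over all cells at 2 h (1.40 to 2.72) and in all 11 in CD14-gated cells at 2 h (2.09 to 3.05) and 4 h (1.57 to 2.77), and ranged from 0.61 to 1.05 at 8 h. NLRC4 in CD14-gated cells was past it in 10 of 11 at 2 h (0.84 to 2.11) and at 4 h (0.85 to 2.43). Over all cells its sign at 4 h and 8 h turned with cells weighted equally (0.58 and 0.27).

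With cells weighted equally, 2 of the 4 genes were at least 2-fold higher over all cells at 2 h, 1 at 4 h and 1 at 8 h. Of all genes counted, 0.807%, 1.08% and 0.866% were. In CD14-gated cells at 8 h 2 were higher with that weighting, where 15.8% of all genes were. With a pseudocount of 10 CPM, 1 was higher in CD14-gated cells at 2 h and 1 at 4 h, where 2.21% and 2.90% of all genes were. With at least 5 CD14 UMIs in the gate, the share of cells with a UMI was 38.9%, 83.9%, 70.6% and 73.7% for NLRP3 (no LPS, 2 h, 4 h and 8 h), 87.0%, 57.7%, 51.8% and 65.8% for PYCARD, 38.8% at 4 h for NLRC4 and 0% at 8 h for GSDMD. Thinned to 1000 UMIs, shares were 6.09%, 25.3%, 25.0% and 13.8% for NLRP3, 32.1%, 6.33%, 4.63% and 13.8% for PYCARD, 1.04%, 6.67%, 4.63% and 1.72% for NLRC4 and 0.297%, 0%, 0% and 0% for GSDMD.

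Counts of all genes past 2-fold moved more. Over all cells at 8 h, 58 higher became 36 with TMM and 35 with DESeq2 size factors. In CD14-gated cells at 2 h, 324 higher and 1649 lower became 632 and 643 with TMM and 694 and 570 with DESeq2. Over all cells at 2 h, 4 h and 8 h, 114, 154 and 58 higher became 199, 264 and 254 with a pseudocount of 0.1 CPM and 54, 70 and 10 with 10 CPM, and 299, 514 and 344 lower became 575, 832 and 574, and 101, 198 and 136. With 10 CPM, CD14-gated cells had 172, 219 and 112 higher and 297, 184 and 94 lower. Without an upper limit on genes, 146 were lower over all cells at 8 h and 1086 in CD14-gated cells at 2 h. With cells weighted equally, 102 were higher and 137 lower over all cells at 8 h, and CD14-gated cells had 827 and 1697 at 4 h and 1179 and 1089 at 8 h. At 8 h the CD14 gate gave 837 and 343 with at least 1 CD14 UMI, and 924 lower with at least 5. The causes were not tested. With 67 CD14-gated cells, the 8 h library limits what could be read there. No paired analysis was possible because the labels carry no replicate numbers and each group has 1 library. Leaving out the barcodes that the scATAC-seq libraries share was chosen after seeing the data and left no gene of the 4 past 2-fold.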
